A study of Mus musculus with 2 samples.

Results

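*Gata1* and the genes of the transcription factor complex built around Tal1 were followed across the cells of *Gata1*- chimeric mouse embryos. The members were listed by name and read from the matching columns of the spliced and unspliced count matrices: *Gata1*, *Zfpm1*, *Tal1*, *Lyl1*, *Lmo2*, *Ldb1*, *Tcf3* and *Cbfa2t3*. All 8 were found among the 29453 genes of the matrices, and the rule that lists them uses no measured value. Embryonic stem cells of 1 male, tdTomato-expressing clone, in which 38 bp of *Gata1* exon 4 were lost with a shift of the reading frame, were injected into C57BL/6 blastocysts. The host cells were wildtype and tdTom-, and the injected cells were *Gata1*- and tdTom+. From 6 pooled whole embryos, cells were sorted into a tdTom+ fraction (age label E8.5) and a tdTom- fraction (age label E8.6), and 1 library was sequenced from each. The protocol gives E8.5 for the whole pool. There is no replicate of either fraction, so no test between them was possible: intervals are 95% counting intervals, and the difference between injected and host cells cannot be told apart from the difference between libraries.

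Gata1 is a zinc finger protein that binds GATA sites and is needed for red cells and megakaryocytes to mature. Tal1 pairs with an E protein such as Tcf3 to bind E boxes, and Lmo2 and Ldb1 hold this pair and a GATA factor together as one complex. Zfpm1 (Friend of GATA) binds the N-terminal zinc finger of Gata1, Cbfa2t3 is a corepressor of the ETO family that joins the complex, and Lyl1 is the close relative of Tal1. Lmo2 and Tal1 also act in the haemato-endothelial cells from which blood arises, before Gata1 is made.

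*Gata1* lies at chrX:7959260-7978071 (GRCm38, minus strand), with no other annotated gene overlapping it. Exon 4 of its transcript Gata1-201, at chrX:7961924-7962069, is shown because the deletion of the injected clone lies in it. Its 146 bases are all coding, and the capitals mark the 4 in-frame TGT or TGC codons spaced as in a GATA zinc finger, which here runs from codon 204 to codon 228. The other such finger, codons 258 to 282, is in exon 5.

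Gata1 exon 4: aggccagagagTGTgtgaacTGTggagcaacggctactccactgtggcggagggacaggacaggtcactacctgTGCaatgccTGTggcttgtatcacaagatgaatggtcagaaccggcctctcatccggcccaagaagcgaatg

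After this exon 995 bases of the transcript remain, of which 869 are in the last exon. Droplet libraries of this kind read the 3′ end of transcripts, so a *Gata1* UMI need not touch the deleted bases, and a remaining UMI does not by itself go against the label. The exact bases lost were not analysed here.

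The other members lie at chr8:122282141-122337251 (*Zfpm1*, plus strand), chr4:115056426-115071755 (*Tal1*, plus), chr8:84701457-84704715 (*Lyl1*, plus), chr2:103957986-103981878 (*Lmo2*, plus), chr19:46031570-46045214 (*Ldb1*, minus), chr10:80409514-80433647 (*Tcf3*, minus) and chr8:122625141-122699109 (*Cbfa2t3*, minus). Overlapping genes are annotated for 5 of the 8: *Gm20388* spans both *Zfpm1* and *Cbfa2t3*, *Gm15899* and *Gm10612* overlap *Cbfa2t3*, and *Nfix*, *4931422A03Rik* and *Pprc1* overlap *Lyl1*, *Lmo2* and *Ldb1* on the opposite strand. Use of strand in the counting is not given in the sources used here, so for these 5 genes the counts may hold reads of an overlapping gene.

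Promoters are shown for the targeted gene and for *Tal1*, *Lyl1* and *Cbfa2t3*, which each differed at least 2-fold between the fractions in a comparison below. Each runs from 250 bases before to 50 bases after the annotated start (RefSeq, GRCm38.p6), and 7 of the 8 members have an entry, with 11 entries in all. The member without one is *Lmo2*. Capitals mark GATA motifs (AGATAA or its variant AGATAG, and the form TGATAA with its variant TGATAG, on either strand) and E boxes (CANNTG), which do not overlap in any entry.

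Gata1, chrX:7967861-7968160, minus: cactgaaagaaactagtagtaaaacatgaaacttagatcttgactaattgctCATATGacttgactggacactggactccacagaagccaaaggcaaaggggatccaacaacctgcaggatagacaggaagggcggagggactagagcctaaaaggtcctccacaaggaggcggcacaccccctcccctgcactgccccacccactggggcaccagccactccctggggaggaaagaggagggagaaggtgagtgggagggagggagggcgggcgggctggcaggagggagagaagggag
Tal1 first start, chr4:115056176-115056475, plus: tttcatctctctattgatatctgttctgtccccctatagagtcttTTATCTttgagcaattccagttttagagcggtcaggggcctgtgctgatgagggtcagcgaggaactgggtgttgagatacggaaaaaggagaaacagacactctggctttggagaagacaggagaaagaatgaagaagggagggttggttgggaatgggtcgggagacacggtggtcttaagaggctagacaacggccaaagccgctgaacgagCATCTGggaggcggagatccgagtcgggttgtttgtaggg
Lyl1, chr8:84701207-84701506, plus: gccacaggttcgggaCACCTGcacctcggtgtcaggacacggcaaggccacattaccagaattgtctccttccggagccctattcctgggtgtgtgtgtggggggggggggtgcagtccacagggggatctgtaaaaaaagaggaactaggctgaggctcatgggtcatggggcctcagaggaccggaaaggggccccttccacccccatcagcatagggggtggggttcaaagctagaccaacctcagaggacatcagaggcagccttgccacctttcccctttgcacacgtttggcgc
Cbfa2t3 first start, chr8:122699060-122699359, minus: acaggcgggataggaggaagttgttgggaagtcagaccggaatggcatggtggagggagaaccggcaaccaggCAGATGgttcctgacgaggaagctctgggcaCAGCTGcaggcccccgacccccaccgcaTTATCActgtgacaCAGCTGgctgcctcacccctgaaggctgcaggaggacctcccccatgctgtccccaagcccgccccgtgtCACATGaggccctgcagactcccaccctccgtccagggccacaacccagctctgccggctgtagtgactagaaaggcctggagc
Cbfa2t3 second start, chr8:122678126-122678425, minus: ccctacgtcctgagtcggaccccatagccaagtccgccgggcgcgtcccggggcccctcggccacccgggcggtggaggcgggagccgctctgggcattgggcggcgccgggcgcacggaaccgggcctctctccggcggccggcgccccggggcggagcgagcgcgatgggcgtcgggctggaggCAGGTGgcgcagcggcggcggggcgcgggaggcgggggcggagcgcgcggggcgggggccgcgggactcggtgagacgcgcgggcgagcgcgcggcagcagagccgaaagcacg

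A GATA motif was found in 3 of the 11 entries, while 29.8% of 32851 RefSeq promoters of the same length hold one. They are the first *Tal1* start (position -205 from the start), the first *Cbfa2t3* start (-118) and the third *Ldb1* entry (2 motifs). The *Gata1* window itself held none. An E box was found in 7 of the 11 entries, against 72.3% of all promoters, and the first *Cbfa2t3* start held 4. Of those 4, 3 read CAGATG or, as a palindrome, CAGCTG on either strand, letters that 30.6% of all promoters hold.

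The matrices held 8981 tdTom+ and 9252 tdTom- barcodes, with medians of 17598 and 15996 spliced UMIs per cell, and 18 barcode sequences occurred in both libraries. At least 3 UMIs of *Xist*, a transcript of female cells, were seen in 48 tdTom+ and 4251 tdTom- cells. After called doublets were left out, 2125 tdTom+ and 1847 tdTom- cells were blood or endothelial. The fractions hardly shared blood sub-clusters: erythroid-like and megakaryocyte-like sub-clusters held tdTom- cells almost alone, and the 6 blood progenitor-like sub-clusters held 1411 tdTom+ cells. For each tdTom+ blood cell the 15 nearest tdTom- cells were therefore found, with the members themselves left out of the distance. The sub-cluster that held more of these 15 than any other gave the group the cell was set beside. This vote put 951 tdTom+ cells beside the 216 tdTom- early erythroid-like cells, 361 beside 1165 later erythroid-like cells, 95 beside 64 megakaryocyte-like cells and 211 beside 29 myeloid-like cells. Early erythroid-like cells are sub-cluster 8 alone, and later ones are sub-clusters 1, 2, 3, 17 and 19. A cell could thus be set beside early cells while most of its 15 were later ones, and the part of this in the split was not tested. The 951 cells are nearest neighbours and not the same cell type: 1 of 7 erythroid markers was raised in them against 5 of 7 in the tdTom- cells, 4 of 6 blood progenitor markers against 2, and globin genes took 1.75% of their UMIs against 5.36%. The 361 cells set beside later erythroid-like cells had 1 of 7 erythroid markers raised against 7 of 7, 4 of 6 blood progenitor markers against 1, and a globin share of 2.93% against 11%. The 211 cells set beside myeloid-like cells had 6 of 6 myeloid markers raised against 5, and 6 of 6 blood progenitor markers against 3. Of 6 endothelial markers 5 were raised in both fractions, so the myeloid-like name is not exclusive. The part of these differences in the log2 ratios given here was not tested.

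Levels are given as CPM, the spliced UMIs of a gene per 1000000 spliced UMIs of all genes, after the cells of a group were added together. Among the named groups of tdTom- cells, *Gata1* was highest in early erythroid-like cells, at 150 CPM (139 to 162), and in megakaryocyte-like cells, at 149 CPM (128 to 173), which did not differ beyond counting error. Later erythroid-like cells, pooled over their sub-clusters, followed at 129 CPM (124 to 134). These sub-clusters were not uniform. Sub-clusters 17 and 19 were at 182 CPM (156 to 211) and 189 CPM (121 to 281), and sub-clusters 1, 2 and 3 at 114 to 136 CPM. Sub-cluster 19 held 32 cells of low depth (median 4042 spliced UMIs) with 24 *Gata1* UMIs. Its interval includes the levels of sub-clusters 2 (136 CPM) and 3 (129 CPM). Outside these groups the level was low, with 10.7 CPM (3.47 to 24.9) in 29 myeloid-like cells, 2.79 CPM (1.62 to 4.46) in endothelial-like cells and 1.44 CPM (1.01 to 1.99) in neural-like cells. The neural-like cells, which do not make *Gata1*, stand in for free RNA, and between 0.764 and 3.01 CPM was read in the cardiac-like, paraxial mesoderm-like, allantois-like, gut endoderm-like, surface ectoderm-like and neural crest-like cells. Against the neural-like cells, *Gata1* in endothelial-like tdTom- cells had a log2 ratio of 0.95 (0.03 to 1.82) on 17 UMIs and in cardiac-like cells one of 1.06 (0.09 to 1.97) on 15 UMIs, both at the edge of counting error, and in the other 5 of these groups the interval includes 0. In the 29 myeloid-like cells the log2 ratio was 2.89 (1.18 to 4.24), on 5 UMIs. In 61 yolk sac endoderm-like cells 0 UMIs were counted, which allows up to 2.22 CPM.

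**Figure D1:**
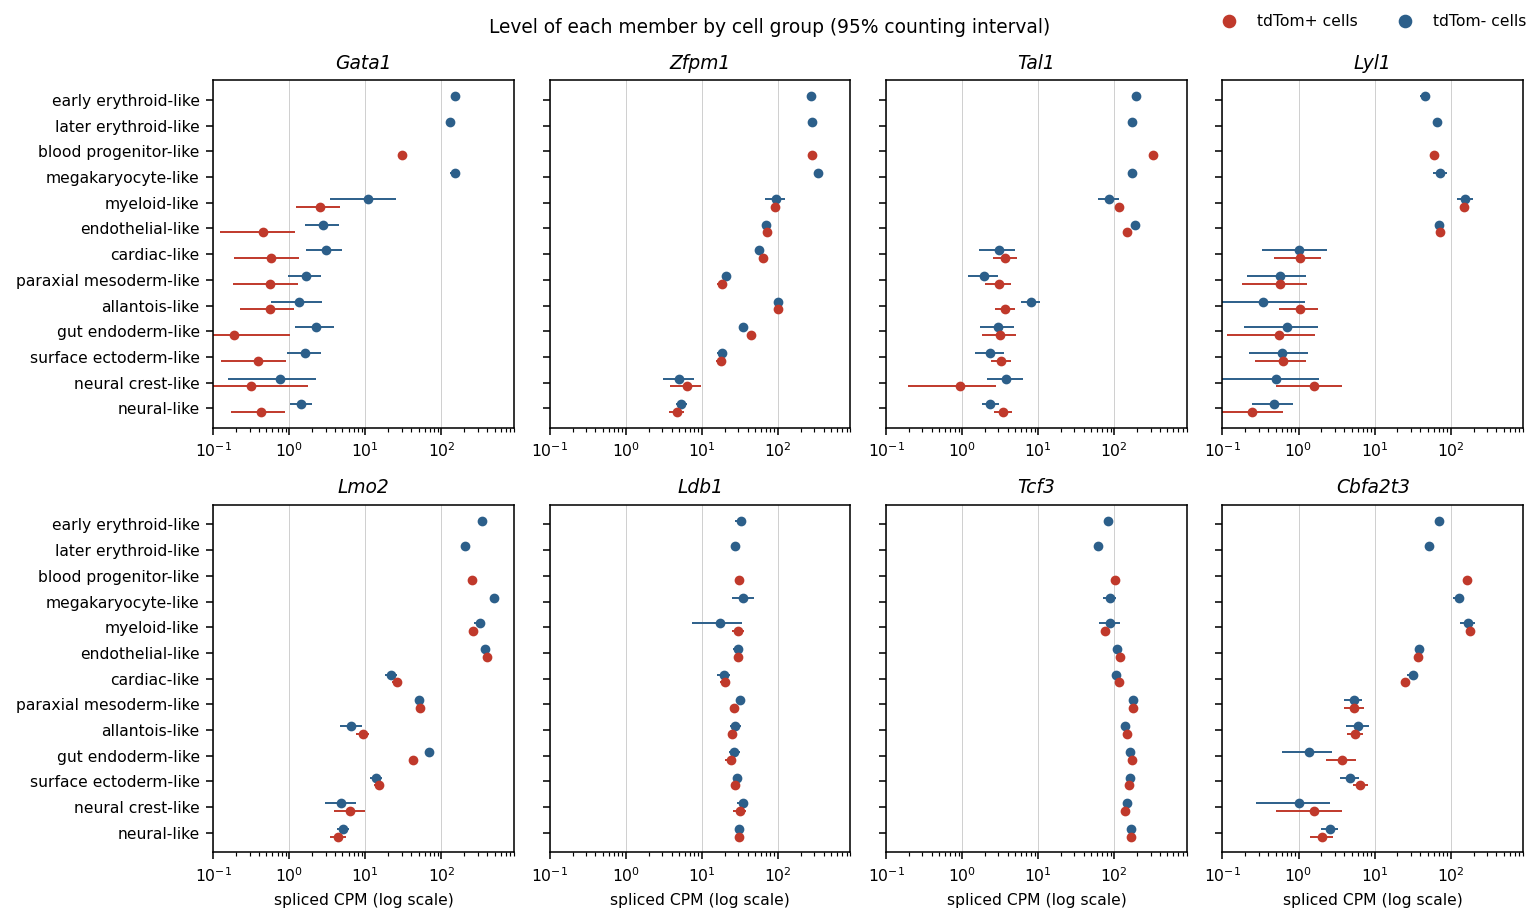
Level of each member (spliced CPM, log axis) in 13 cell groups, with tdTom- cells in blue, tdTom+ cells in red and 95% counting intervals as bars. *Gata1* is highest in tdTom- erythroid-like and megakaryocyte-like cells, *Tal1* and *Lyl1* are high in blood and endothelial groups, and *Ldb1* lies between 17.1 and 35.3 CPM in the tdTom- groups drawn.

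The partners covered wider territory. *Zfpm1* was at 277 CPM (261 to 292) in early erythroid-like and 340 CPM (307 to 375) in megakaryocyte-like tdTom- cells, and well above its neural-like level of 5.40 CPM (4.53 to 6.40) also in allantois-like (102 CPM, 94.3 to 111), endothelial-like (69.9 CPM, 63.4 to 76.8) and cardiac-like cells (55.7 CPM, 49.4 to 62.7). *Tal1* was at 191 CPM (179 to 205) in early erythroid-like and 187 CPM (176 to 198) in endothelial-like tdTom- cells, which did not differ beyond counting error, and at 2.36 CPM (1.80 to 3.05) in neural-like cells. *Lyl1* was at 154 CPM (120 to 194) in tdTom- and 152 CPM (140 to 165) in tdTom+ myeloid-like cells, and at 0.480 CPM (0.248 to 0.839) in tdTom- neural-like cells. Among the named groups *Lmo2*, the bridging adaptor, was highest in megakaryocyte-like tdTom- cells, at 497 CPM (457 to 539), followed by endothelial-like cells at 373 CPM (358 to 389). The endothelial-like sub-clusters 12 (514 CPM, 472 to 559) and 15 (520 CPM, 469 to 575) were as high. *Lmo2* was also read in gut endoderm-like (67.9 CPM, 61.3 to 75.0) and paraxial mesoderm-like cells (51.2 CPM, 46.9 to 55.7), against 5.08 CPM (4.24 to 6.05) in neural-like cells.

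The general subunits *Ldb1* and *Tcf3* were read in every group. *Ldb1*, which holds the complex together in many tissues, was at 32.8 CPM (27.7 to 38.5) in early erythroid-like, 29.7 CPM (25.5 to 34.3) in endothelial-like and 30.5 CPM (28.4 to 32.8) in neural-like tdTom- cells, and lowest in yolk sac endoderm-like cells at 11.1 CPM (6.21 to 18.3). *Tcf3* was also lowest in yolk sac endoderm-like tdTom- cells, at 42.9 CPM (32.6 to 55.5), followed by 61.9 CPM (58.7 to 65.3) in later erythroid-like, 82.9 CPM (74.7 to 91.7) in early erythroid-like and 164 CPM (159 to 169) in neural-like cells. *Cbfa2t3*, the corepressor, was at 169 CPM (134 to 210) in myeloid-like, 129 CPM (109 to 151) in megakaryocyte-like, 70.4 CPM (62.9 to 78.5) in early erythroid-like, 38.7 CPM (33.9 to 44.0) in endothelial-like and 31.7 CPM (26.9 to 37.0) in cardiac-like tdTom- cells. In neural-like tdTom- cells *Cbfa2t3* was at 2.56 CPM, far below these groups. For *Ldb1* and *Tcf3* the neural-like level is made by those cells themselves and is no measure of free RNA.

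Spliced *Gata1* was lower in tdTom+ cells of the erythroid-like and megakaryocyte-like comparisons. Over all kept cells 999 *Gata1* UMIs (6.49 CPM) were counted in the tdTom+ fraction and 3962 (27.9 CPM) in the tdTom- fraction, for a log2 ratio of -2.11 (-2.21 to -2.0). In the early erythroid-like comparison spliced *Gata1* was at 30.4 CPM (663 UMIs) against 150 CPM (684 UMIs), for a log2 ratio of -2.31 (-2.46 to -2.15). In the later erythroid-like comparison the levels were 33.0 CPM and 129 CPM, with a log2 ratio of -1.97 (-2.17 to -1.78). In the megakaryocyte-like comparison they were 19.0 CPM and 149 CPM, with a log2 ratio of -2.97 (-3.52 to -2.46). The level in tdTom+ cells was thus lower in each of the 3 comparisons. Leaving out the tdTom+ cells with at least 3 *Xist* UMIs left the early erythroid-like log2 ratio at -2.31.

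More than 50% of the *Gata1* UMIs left in the tdTom+ cells set beside erythroid-like cells held intron sequence. The authors counted such unspliced UMIs as a layer of their own. They can come from RNA not yet fully processed or from transcripts that keep an intron, which these counts cannot tell apart. Over all kept cells 57.8% of *Gata1* UMIs were unspliced in tdTom+ (55.8% to 59.8%; 1367 unspliced UMIs) and 8.37% in tdTom- cells (7.56% to 9.24%; 362 unspliced UMIs). In the early erythroid-like comparison the shares were 58.4% and 8.06%, in the later erythroid-like comparison 59.9% and 8.12%, and in the megakaryocyte-like comparison 50% (38 of 76 UMIs) and 5.98%. Within the 6 tdTom+ blood progenitor-like sub-clusters the share ran from 55.1% to 60.9%, and within the tdTom- erythroid-like sub-clusters from 5.62% to 9.52%, except sub-cluster 19 with 0 of 24 UMIs, so the fractions did not overlap.

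Unlike the spliced level, the unspliced level of *Gata1* was higher in tdTom+ cells of both erythroid-like comparisons. As CPM of unspliced UMIs it was 337 in tdTom+ cells (from 929 UMIs) against 111 in tdTom- cells (from 60) of the early erythroid-like comparison, for a log2 ratio of 1.61 (1.23 to 2.01), and 416 against 108 in the later one, for a log2 ratio of 1.95 (1.71 to 2.19). In the megakaryocyte-like comparison it was 134 against 68.5, and the log2 ratio of 0.97 (-0.03 to 2.09) was within counting error. Both layers added together gave a log2 ratio of -1.18 in the early erythroid-like comparison. Of the 951 tdTom+ cells there, 49.3% held a spliced and 51.0% an unspliced *Gata1* UMI, and 226 held unspliced UMIs alone. Of the 216 tdTom- cells, 90.3% held a spliced and 19.9% an unspliced UMI, and 4 held unspliced UMIs alone. A spliced *Gata1* UMI was seen in 0.728% of tdTom+ and 2.12% of tdTom- neural-like cells. With each cell thinned to 5000 spliced UMIs, a spliced *Gata1* UMI was left in 15.7% (13.8% to 17.7%) of 1402 tdTom+ blood progenitor-like cells, in 108 of 216 tdTom- early erythroid-like cells (43.1% to 56.9%), and in 0.106% and 0.841% of neural-like cells. Median depths were 22560 and 20934 spliced UMIs in the early erythroid-like and 16800 and 15113 in the neural-like cells.

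**Figure D2:**
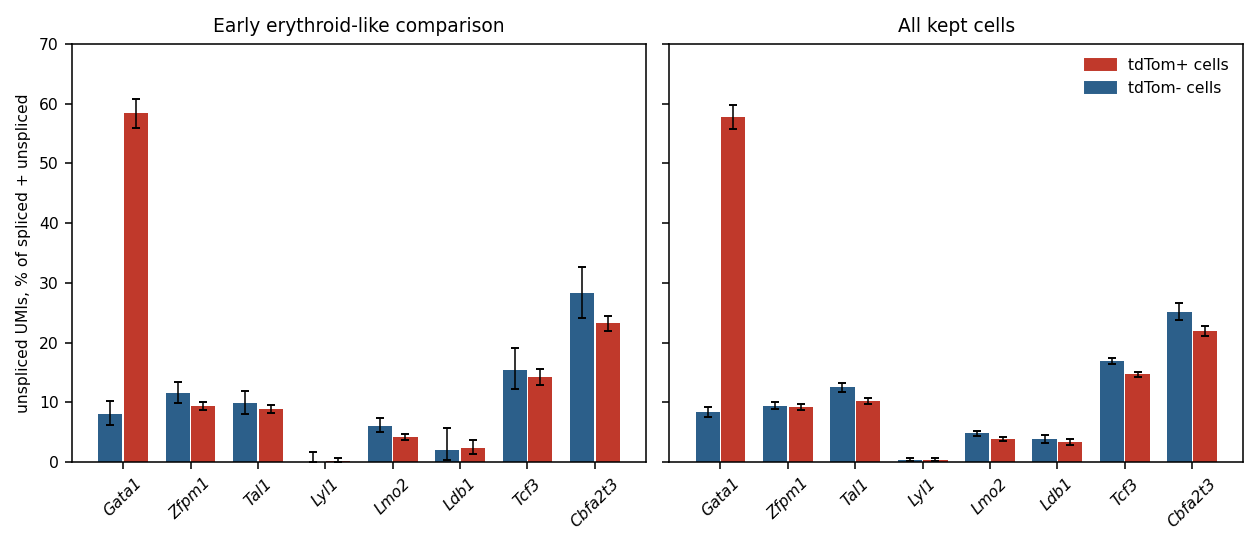
Unspliced UMIs as a percent of spliced and unspliced UMIs of each member, in the early erythroid-like comparison (left) and over all kept cells (right), in tdTom- (blue) and tdTom+ cells (red), with exact binomial 95% intervals. *Gata1* is at 58.4% against 8.06% on the left, and each other member differs by about 5 percentage points or less.

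Set against other genes, *Gata1* was at the edge of the distribution. Among 5364 genes with at least 100 UMIs of both layers in each fraction of the early erythroid-like comparison, the median difference in unspliced share (tdTom+ minus tdTom-) was -0.141 percentage points, with the 1st and 99th percentiles at -10.6 and 8.10. The difference of *Gata1*, 50.3 points, ranked 1 of 5364, followed by *Mllt3* at 37.7 points and *Igf2r* at 33.1 points. *Gata1* was the only gene with a difference of 40 points or more. In the later erythroid-like comparison its 51.7 points ranked 1 of 6418 genes, with *Mllt3* next at 39.9 points. Over all kept cells the 49.4 points of *Gata1* ranked 2 of 13815, after *Rhd*, a red cell membrane protein gene. No partner stood out in this way. Their differences in the early erythroid-like comparison ran from -5.03 points (*Cbfa2t3*, 23.2% against 28.3%) to 0.404 points (*Ldb1*, 2.38% against 1.97%).

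**Figure D3:**
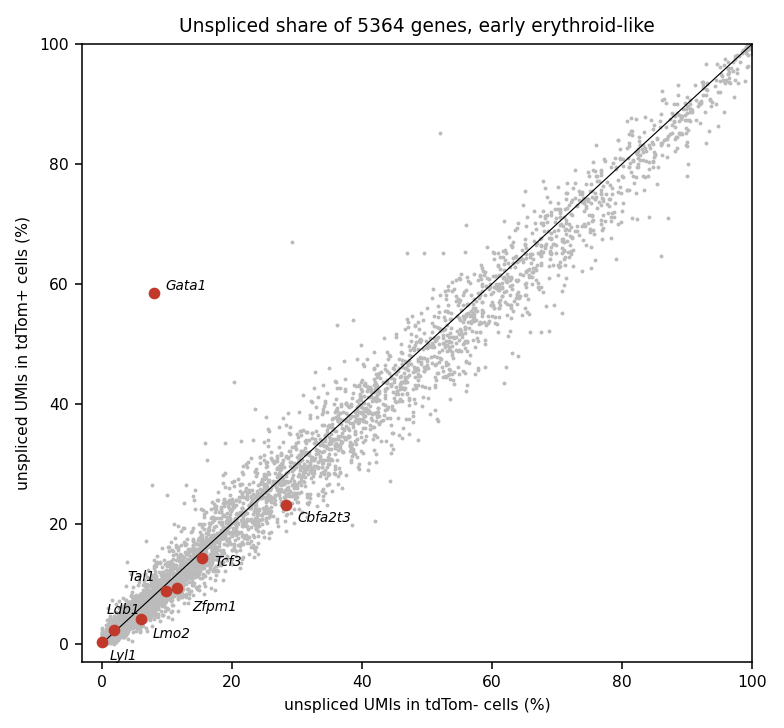
Unspliced UMIs (percent of both layers) in tdTom- cells (x axis) and tdTom+ cells (y axis) of the early erythroid-like comparison for 5364 genes, with the line of equal shares and the 8 members in red. *Gata1* lies far above the line at 8.06% and 58.4%, and the 7 other members lie near it.

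Of the 8 members, 1 was at least 2-fold higher (*Cbfa2t3*) and 1 at least 2-fold lower (*Gata1*) in the tdTom+ cells of the early erythroid-like comparison, where all 8 had at least 100 spliced UMIs. Of the 7950 genes with that many UMIs, 6.47% were at least 2-fold higher and 2.58% at least 2-fold lower. The members' median log2 ratio was 0.17, beside 0.08 over all these genes. In the later erythroid-like comparison 2 of the 8 were at least 2-fold higher (*Tal1* and *Cbfa2t3*) and 2 at least 2-fold lower (*Gata1* and *Lyl1*), beside 6.27% and 3.87% of 7796 genes. There the median log2 ratio of all genes was 0.19, and 0.06 with globin genes left out of the total, under which *Tal1* was at 0.92, short of 2-fold. Under other settings *Gata1* in this comparison ran from -2.24 to -0.79, *Lyl1* from -1.21 to -0.85 and *Tal1* from 0.86 to 1.07. Both counts thus depend on the settings. *Ldb1* and *Tcf3* each came out at 1.64 where the neural-like level was subtracted. Both genes lay below that level in both fractions (*Ldb1* at 29.9 CPM and 27.3 CPM against 30.9 CPM and 30.5 CPM). Each side then fell to a floor of 3 counts, so 1.64 is the ratio of UMI totals and no reading of either gene. In the megakaryocyte-like comparison 2 of 7 were higher (*Lyl1* and *Cbfa2t3*) and 2 lower (*Gata1* and *Lmo2*), beside 2.02% and 2.07% of 4002 genes, and *Ldb1* had too few UMIs. Under other settings *Lyl1* ran from 0.97, short of 2-fold, to 1.27. Over all kept cells 1 was higher (*Cbfa2t3*) and 1 lower (*Gata1*), beside 1.69% and 2.33% of 13697 genes.

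*Tal1*, the basic helix-loop-helix factor of the complex, was read at 325 CPM from 7099 UMIs in tdTom+ cells, against 191 CPM from 871 UMIs in tdTom- cells, for a log2 ratio of 0.76 (0.66 to 0.87). In the later erythroid-like comparison it was at 352 CPM against 170 CPM, for a log2 ratio of 1.05 (0.98 to 1.12; 0.86 to 1.07 under other settings). In megakaryocyte-like and myeloid-like comparisons its log2 ratios were 0.65 (0.41 to 0.89) and 0.50 (0.03 to 1.00), and the myeloid-like value turned to -0.15 with cells thinned to 5000 UMIs. Its unspliced level was also higher in the early erythroid-like comparison, with a log2 ratio of 0.50 (0.19 to 0.82).

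*Cbfa2t3* was read at 167 CPM from 3647 UMIs in tdTom+ cells, against 70.4 CPM from 320 UMIs in tdTom- cells of the early erythroid-like comparison, for a log2 ratio of 1.25 (1.08 to 1.42), which was above the log2 ratio of 95.3% of genes. The later erythroid-like (1.21, 1.09 to 1.34) and megakaryocyte-like (1.17, 0.91 to 1.44) log2 ratios were alike. In the myeloid-like comparison, with 192 CPM against 169 CPM, the log2 ratio of 0.18 (-0.15 to 0.53) was within counting error. Unspliced *Cbfa2t3* also differed in the early erythroid-like comparison, with a log2 ratio of 0.78 (0.52 to 1.06).

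*Zfpm1*, the partner of the zinc finger that exon 4 encodes, differed little in spliced level. Its levels were 285 CPM and 277 CPM in the early erythroid-like comparison, for a log2 ratio of 0.04 (-0.05 to 0.13), and the log2 ratio was -0.10 (-0.17 to -0.02, but 0.02 with a resolution of 2) in the later erythroid-like and -0.26 (-0.44 to -0.07) in the megakaryocyte-like comparison. Unspliced *Zfpm1* was lower in tdTom+ cells of the early erythroid-like comparison (-0.39, -0.64 to -0.14). *Ldb1*, at 32.0 CPM and 32.8 CPM, had a log2 ratio of -0.04 (-0.29 to 0.23) in the early erythroid-like comparison. For *Tcf3*, at 102 CPM and 82.9 CPM, it was 0.30 (0.14 to 0.46), and in the later erythroid-like comparison 0.75 (0.62 to 0.88).

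*Lmo2* and *Lyl1* changed sides between comparisons. *Lmo2* was at 245 CPM in tdTom+ cells against 338 CPM in tdTom- cells of the early erythroid-like comparison (log2 ratio -0.47, -0.55 to -0.38), at 215 CPM and 497 CPM in the megakaryocyte-like one (-1.21, -1.39 to -1.02), and at 288 CPM and 206 CPM in the later erythroid-like one (0.48, 0.41 to 0.56). The unspliced log2 ratio of *Lmo2* was -1.12 (-1.46 to -0.77) in the early erythroid-like comparison and -0.33 (-0.73 to 0.05) in the later one, where its sign is opposite to the spliced value. *Lyl1* was at 58.7 CPM and 45.7 CPM in the early erythroid-like comparison (0.36, 0.15 to 0.58, but between -0.03 and 0.93 under other settings), at 168 CPM and 73.1 CPM in the megakaryocyte-like one (1.20, 0.85 to 1.56), and at 32.6 CPM and 66.2 CPM in the later erythroid-like one (-1.02, -1.23 to -0.82; -1.21 to -0.85 under other settings). Between the megakaryocyte-like and later erythroid-like comparisons, the tdTom+ cells were thus on opposite sides of the tdTom- cells for both genes.

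Different tdTom+ sub-clusters stood behind these comparisons. Of the 951 tdTom+ cells set beside early erythroid-like cells, 331 came from sub-cluster 0, 191 from sub-cluster 7, 168 from sub-cluster 5, 110 from sub-cluster 13, 99 from sub-cluster 4 and 52 from sub-cluster 14. Of the 361 set beside later erythroid-like cells, 187 came from sub-cluster 4, and of the 95 set beside megakaryocyte-like cells 78 came from sub-cluster 5. The 95 cells had 5 of 8 megakaryocyte, 6 of 6 blood progenitor and 3 of 6 myeloid markers raised, while the tdTom- megakaryocyte-like cells had 8, 2 and 2 raised. The part of this in the log2 ratios was not tested.

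**Figure D4:**
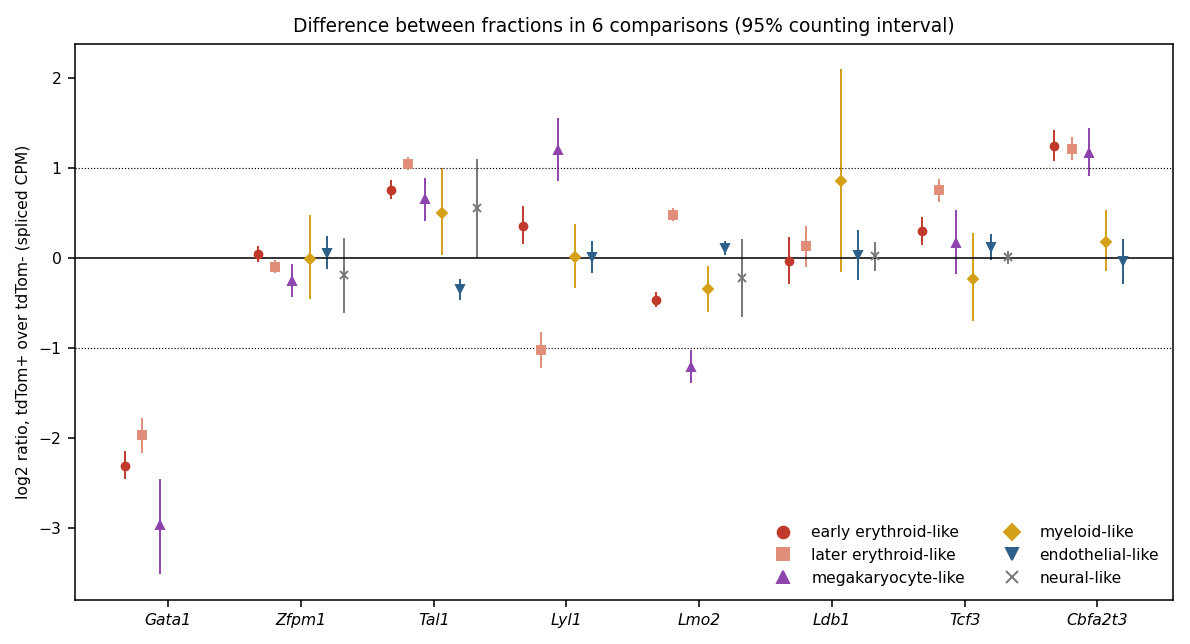
Log2 ratio of spliced CPM, tdTom+ over tdTom-, for each member in 6 comparisons, with 95% counting intervals, a solid line at 0 and dotted lines at 2-fold; a point is drawn where the gene had at least 100 UMIs. *Gata1* lies between -1.97 and -2.97, *Cbfa2t3* is above 1 in the erythroid-like and megakaryocyte-like comparisons alone, and *Lyl1* and *Lmo2* lie on either side of 0.

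The tdTom+ blood progenitor-like cells were not uniform in their complex members. *Lyl1* was at 16.5 CPM (13.4 to 20.1) in sub-cluster 4 and 18.0 CPM (15.3 to 21) in sub-cluster 0, which did not differ beyond counting error, and at 153 CPM (143 to 163) in sub-cluster 5. The latter is led by *Spi1*, a myeloid transcription factor, *Rac2* and *Laptm5*, and has 4 of 6 myeloid markers raised. *Cbfa2t3* followed the same order at its ends, with 96.3 CPM (88.6 to 105) in sub-cluster 4 and 300 CPM (287 to 315) in sub-cluster 5. *Lmo2* was lowest in sub-cluster 5, at 151 CPM (142 to 162), and highest in sub-clusters 13 and 4, at 349 CPM (328 to 372) and 336 CPM (322 to 351). *Gata1* varied less, from 23.1 CPM (19.4 to 27.4) in sub-cluster 5 to 34.1 CPM (30.4 to 38.1) in sub-cluster 0. *Tal1* ran from 287 to 367 CPM over the 6 sub-clusters, all above the 191 CPM of the early erythroid-like tdTom- cells. The members were not used to make the sub-clusters, but genes that vary with them were, so these are descriptions.

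**Figure D5:**
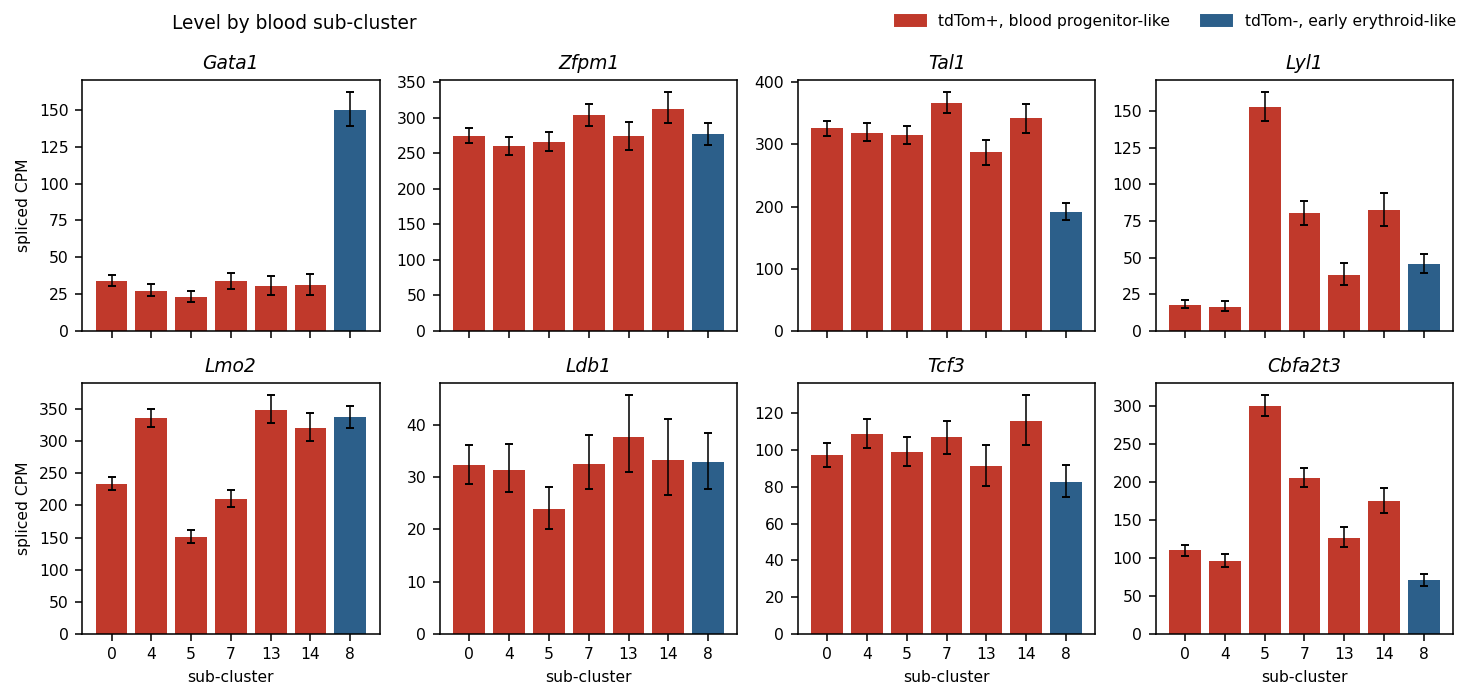
Level of each member (spliced CPM, each panel on its own axis from 0) in the 6 tdTom+ blood progenitor-like sub-clusters (red) and in the tdTom- early erythroid-like sub-cluster 8 (blue), with 95% counting intervals. *Gata1* is lower and *Tal1* and *Cbfa2t3* are higher in each red bar than in the blue bar, while *Lyl1* spans 16.5 to 153 CPM.

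In endothelial-like cells, which both fractions held in shared sub-clusters (503 tdTom+ and 368 tdTom- cells), the partners were close to equal. Of the 7 members with at least 100 UMIs, 0 were at least 2-fold higher and 0 at least 2-fold lower, beside 0.151% and 0.403% of the 7948 genes with that many UMIs. *Gata1* was counted 4 times in tdTom+ and 17 times in tdTom- cells, beside neural-like levels of 0.424 CPM and 1.44 CPM. The 7 erythroid markers summed to 182 CPM in tdTom+ and 1462 CPM in tdTom- endothelial-like cells, and their part in the values here was not tested. *Tal1* was at 146 CPM and 187 CPM, for a log2 ratio of -0.35 (-0.47 to -0.24), and was lower in tdTom+ cells of 4 of the 5 endothelial-like sub-clusters. In 2 of these 4 the interval excludes 0 (sub-clusters 9 and 12), and in sub-clusters 6 (-0.44, -0.89 to 0.02) and 15 (-0.19, -0.45 to 0.07) it does not. The exception, sub-cluster 10, had 94.9 CPM and 81.3 CPM with a log2 ratio of 0.22 (-0.14 to 0.59). *Lmo2* was at 402 CPM and 373 CPM (0.11, 0.03 to 0.19, but -0.02 with called doublets kept), with its largest difference in the *Lyve1*-led sub-cluster 6, at 278 CPM and 186 CPM (0.58, 0.36 to 0.81). *Zfpm1*, *Lyl1*, *Ldb1*, *Tcf3* and *Cbfa2t3* had log2 ratios between -0.04 and 0.12, with intervals that include 0 over all endothelial-like cells. These 5 genes were also read in each of the 5 sub-clusters, where 3 of the intervals exclude 0. They are those of *Lyl1* in sub-cluster 6 (-0.43, -0.81 to -0.06), *Cbfa2t3* in sub-cluster 9 (-0.83, -1.50 to -0.18) and *Zfpm1* in sub-cluster 10 (0.40, 0.01 to 0.81). The *Cbfa2t3* value rests on 32 and 57 UMIs, short of 100 UMIs in all. The share of all genes whose interval excludes 0 was not computed. In myeloid-like cells (29 tdTom- cells) 0 of the 7 members with at least 100 UMIs passed 2-fold in either direction, beside 3.09% of 5016 genes higher and 1.52% lower.

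Outside blood and endothelium *Gata1*, *Zfpm1*, *Tal1* and *Cbfa2t3* had counting intervals that exclude 0 over the pooled other cells. The share of all genes with such an interval was not computed, so this is a description and not a result about the members. Over 6440 tdTom+ and 6868 tdTom- other cells, 0 members were at least 2-fold higher and 1 at least 2-fold lower, beside 0.342% and 1.87% of 13165 genes. The member past 2-fold was *Gata1*, with 48 UMIs (0.436 CPM) in tdTom+ and 194 UMIs (1.81 CPM) in tdTom- cells (-2.05, -2.54 to -1.59), beside 0.424 CPM and 1.44 CPM in the neural-like cells that stand in for free RNA. *Cbfa2t3* was at 7.74 CPM and 6.30 CPM (0.30, 0.15 to 0.44), but in cardiac-like cells, where it was highest among them, it was at 25.4 CPM and 31.7 CPM (-0.32, -0.62 to -0.01). *Tcf3* had a log2 ratio of 0.02 (-0.01 to 0.05), *Ldb1* one of -0.02 (-0.09 to 0.06) and *Lmo2* one of -0.00 (-0.08 to 0.08). *Lmo2* was lower in tdTom+ gut endoderm-like cells, at 42.6 CPM and 67.9 CPM (-0.67, -0.91 to -0.43). *Tal1*, at 4.54 CPM and 2.73 CPM over other cells (0.73, 0.52 to 0.95), was near its neural-like levels of 3.46 CPM and 2.36 CPM. It went the other way in allantois-like cells, at 3.70 CPM (2.71 to 4.94) in tdTom+ and 8.06 CPM (5.94 to 10.7) in tdTom- cells, and in neural crest-like cells, with 3 and 15 UMIs (-2.01, -4.44 to -0.19). *Zfpm1* over other cells was at 33.8 CPM and 26.4 CPM (0.35, 0.28 to 0.43), and at 102 CPM in the allantois-like cells of both fractions. Those cells lay largely in different clusters, since all 702 tdTom+ cells shared a cluster with 108 of the tdTom- cells, and the remaining 249 tdTom- cells formed their own. These fractions held other cell types in different shares, whose part in the pooled values was not tested.

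Cells of the early erythroid-like comparison held several members at once. With each cell thinned to 5000 spliced UMIs, a mean of 3.56 of the 8 members was detected in tdTom+ and 3.36 in tdTom- cells, and 49.8% (46.6% to 53.0%) and 46.8% (40% to 53.6%) of cells held 4 or more. Neural-like cells held a mean of 0.784 and 0.763 members, and 4 or more in 0.319% and 0.129% of cells. *Tal1*, *Lmo2* and *Ldb1* together were seen in 70 of 950 tdTom+ and 7 of 216 tdTom- cells at this depth. In endothelial-like cells 17.4% (14.1% to 21.1%) of tdTom+ and 21.1% (16.9% to 25.7%) of tdTom- cells held 4 or more.

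The other genes of the pathway were read from 6 lists of 49 genes in the early erythroid-like comparison, where the same shares of all genes apply. Among the other GATA and Friend of GATA factors, 1 of 6 had enough UMIs: *Gata2*, the GATA factor of early progenitors, at 144 CPM from 3142 UMIs in tdTom+ cells against 6.38 CPM from 29 UMIs in tdTom- cells, for a log2 ratio of 4.50 (3.97 to 5.08). Among the blood factors bound with the complex, 4 of 7 tested were at least 2-fold higher: *Runx1* (93.9 CPM and 36.9 CPM, log2 ratio 1.35), its partner *Cbfb* (1.65), and the ETS factors *Fli1* (1.69) and *Etv6* (1.67). The erythroid factor *Klf1* was the 1 that was lower, at 104 CPM and 210 CPM (-1.02, -1.13 to -0.91). Of 4 E proteins and inhibitors tested, *Id1*, an inhibitor of E proteins, was higher at 39.1 CPM and 14.3 CPM (1.45, 1.09 to 1.84). Of 4 LIM-only and LDB adaptors tested, *Lmo4*, a relative of *Lmo2*, was higher at 321 CPM and 50.8 CPM (2.66, 2.47 to 2.86).

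Of 9 tested genes of the ETO family and histone deacetylase corepressors, and of the 12 NuRD and CtBP partners of Zfpm1, 0 were at least 2-fold higher or lower, beside 6.47% and 2.58% of all genes, and whether the lists differ from other genes was not tested. The median log2 ratios of these lists were 0.19 and 0.18, beside 0.08 over all genes. In endothelial-like cells, where 3 to 12 genes a list had at least 100 UMIs, 0 passed 2-fold in either direction, beside 0.151% of all genes higher and 0.403% lower.

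The genes most like each member were found over the 41 tdTom- cell groups with at least 30 cells, by Pearson correlation of log2(CPM + 10) among 12437 genes. These values describe groups of 1 library that share its depth and free RNA. For *Gata1* they included *Cited4*, *Gfi1b*, *Tspan32* and *Tmem14c*, each at 0.98. *Tal1* and *Lyl1* were each other's nearest gene, at 0.92, and *Lmo2* was nearest to *Tal1* (0.89) and *Lyl1* (0.84). *Zfpm1* was nearest to *Abcb10*, *Smim1*, *Fam210b* and *Art4* (0.83 to 0.84) beside *AC132623.2* at 0.85, and *Cbfa2t3* was nearest to *AC132623.2* (0.87) and to *Zfpm1* (0.83). *Tcf3* was nearest to *Sox11*, *Trim28*, *Mex3a*, *Zfp553* and *Hnrnpl*, each at 0.93. *Ldb1*, whose level varied least (SD 0.32 on the log2 scale, beside 1.43 for *Gata1*), was nearest to *Hcfc1*, at 0.82, followed by *Smarca5* (0.76), *Gm26518*, *Serbp1* (both 0.75) and *Atad5* (0.74). For *Tal1* the list goes on with *Crlf3*, *Ccdc71l* and *Creg1*, for *Lyl1* with *Creg1*, *Itga2b*, *Plxnd1* and *Crlf3*, for *Lmo2* with *Ubash3b*, *Creg1* and *Crlf3*, and for *Cbfa2t3* with *Gypc*, *Tacc1* and *Art4*.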

How the data were processed

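Per the labels and the study's methods, the authors aligned the droplet reads of both libraries to mm10 with Cell Ranger 3.0.2, kept barcodes that passed emptyDrops and a filter on low quality, and split the molecules into layers with velocyto. The deposited values are raw UMI counts, spliced and unspliced, and every value was whole. The metrics per cell that the authors deposited hold total counts and the percent of counts on mitochondrial genes (medians 2.07% in tdTom+ and 2.08% in tdTom- cells). The gene metadata gave the identifiers. Cell types of the authors were not used here, so groups were rebuilt and may differ from the study's. The matrices hold more barcodes (8981 and 9252) than the study counts as cells after quality control and cell type assignment. The authors also identified doublets, and their final set of cells was not rebuilt here.

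Doublets were called with Scrublet in each library (4.40% of tdTom+ and 5.77% of tdTom- barcodes), and 1 cluster with 94.3% called cells was left out. Leiden clusters (scanpy 1.11.5, leidenalg 0.10.2, Python 3.11.15) were made from spliced counts with 883 genes left out, the members, lists, globin genes, *Xist* and Y-linked genes among them. Blood and endothelial cells were clustered again with 30 components and 15 neighbours. Resolutions of 1, 1.5 and 2 were viewed, and 1.5 was chosen after their markers were seen. A name ending in -like needs at least 3 markers of the class raised at least 2-fold. Outside blood and endothelium it also needs 1 such marker among the 10 leading genes, a rule added after the clusters were seen. The erythroid-like sub-cluster with the lowest globin share in tdTom- cells is called early. Of its tdTom- cells, 90.3% were matched back to it. The same components made the sub-clusters, so this share does not show how well tdTom+ cells were placed. Levels are CPM of summed UMIs with exact Poisson intervals, shares have exact Clopper-Pearson intervals, and log2 ratios have exact conditional intervals. All intervals, and the floor of 3 counts for a count of 0, cover counting error only. No p-value is given, since cells of 1 library are not replicates. The fold interval was tested on simulated Poisson counts, which hold counting error only.

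Genes named are the 8 members, the genes of 6 lists past 2-fold in the early erythroid-like comparison with at least 100 UMIs, and the 5 genes most like each member. An item of the last kind is not reported here. *Rhd*, *Mllt3*, *Igf2r*, the leading genes of sub-clusters and the overlapping genes were added after values were seen. The members and lists were chosen with earlier results of these data known. Gene models are from GENCODE (GRCm38) and promoters from RefSeq (GRCm38.p6).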

Additional observations from a re-analysis of the deposited data

Results flagged for a closer look

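*Tal1* had log2 ratios of tdTom+ over tdTom- cells on opposite sides of 0 in 2 cell groups, 1.05 in the later erythroid-like comparison and -0.35 in endothelial-like cells, and neither counting interval includes 0. *Lyl1* likewise had 1.20 in the megakaryocyte-like and -1.02 in the later erythroid-like comparison. *Lmo2* had 0.48 in the later erythroid-like and -1.21 in the megakaryocyte-like comparison. The difference between the cell groups was not tested for any of the 3 genes, since each fraction is 1 library, and the megakaryocyte-like and later erythroid-like comparisons drew tdTom+ cells from different sub-clusters.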

How the results depend on the processing

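No paired analysis was possible because each fraction is 1 library, and no library could be left out. The log2 ratio of *Gata1* stayed below 0 in every alternative run. Over all cells it was -0.98 with both layers added and -1.99 with cells thinned to 5000 UMIs. In the early erythroid-like comparison it was -1.18, -2.12 and, with called doublets kept, -2.11. Alternatives were run on all cells and on the early and later erythroid-like, megakaryocyte-like, myeloid-like and endothelial-like comparisons, and not on other cells or sub-clusters. Those on the later erythroid-like, megakaryocyte-like and myeloid-like comparisons were added after seeing the data, as were a resolution of 2 (-2.17) and all blood progenitor-like tdTom+ cells in place of matched ones (-2.32). The 2 counts of members past 2-fold in the early erythroid-like comparison stayed at 1 in each alternative, except with the neural-like level subtracted. That gave 3 lower, with *Ldb1* at -1.02 and *Tcf3* at -2.26, genes that neural-like cells make themselves. *Ldb1*, at 32.0 CPM and 32.8 CPM, was little above its neural-like levels of 30.9 CPM and 30.5 CPM. *Tcf3* lay below its neural-like level in both fractions, there and over all cells, so each side fell to the floor of 3 counts. Its -2.26, and its -0.12 over all cells, are thus ratios of UMI totals and no reading of *Tcf3*. Among the other log2 ratios whose counting interval excludes 0, the sign changed for *Zfpm1* in the later erythroid-like comparison with a resolution of 2 (0.02), *Lyl1* with cosine distance in the early erythroid-like comparison (-0.03), *Tal1* in thinned myeloid-like cells (-0.15) and *Lmo2* in endothelial-like cells with called doublets kept (-0.02); the cause was not tested. Values with an interval that includes 0 also changed sign. Examples are *Cbfa2t3* in endothelial-like cells (-0.04, range -0.18 to 0.26) and *Lyl1* in myeloid-like cells (0.01, range -0.37 to 0.17). *Tcf3* in endothelial-like cells (0.12, range -0.52 to 0.24) and *Ldb1* in myeloid-like cells (0.86, range -3.11 to 0.95) are another case. Their lowest values came from subtracting the neural-like level, with both fractions at the floor, and are no reading of these genes. The unspliced share of *Gata1* in tdTom+ cells was 57.6% with called doublets kept and 57.8% without cells with *Xist*. With genes of at least 20 UMIs, 14.8% of all genes passed 2-fold in the early erythroid-like comparison. Low counts limit the myeloid-like comparison (29 tdTom- cells) and *Gata1* outside blood.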
